A study of Mus musculus with 6 samples.

Results

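The genes described here had almost no reads in wild-type mouse ovaries and clear reads in ovaries of mice that are homozygous for a truncated Bnc1. RNA-seq was performed on ovaries of 3 wild-type mice, called Bnc1+/+ ovaries 1, 4 and 7, and of 3 Bnc1tr/tr mice, called ovaries 1, 2 and 3. All mice were of the C57BL/6 J strain and 8 weeks old. Bnc1 encodes basonuclin 1, a zinc finger protein known from oocytes, male germ cells and the basal layer of stratified epithelia. The tr allele carries a small deletion in an exon of Bnc1 that shifts the reading frame and ends the protein early. It is a targeted germline allele, bred from heterozygous parents, and the labels name no treatment for either genotype. Each library was made from whole ovary tissue, so reads of oocytes, granulosa cells, corpora lutea, stroma, blood and any attached oviduct are pooled in it, and fewer cells of a type cannot be told apart from less RNA per cell.

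Genes were selected on their CPM, the count of a gene multiplied by 1000000 and divided by the total of the ovary. A gene was kept when its CPM was at most 0.5 in each Bnc1+/+ ovary and at least 1 in each Bnc1tr/tr ovary, and when its lowest Bnc1tr/tr value was at least 4 times its highest Bnc1+/+ value. Of 44788 genes listed, of which 31717 had at least 1 count, 32 met these limits. Keratin, connexin, Hox, Fox, collagen, axonemal dynein and histone symbols were left out, which removed Foxn4, Gjb2, Krt35 and Krt71 and left 28 genes. Since these genes were chosen by their values in the 6 ovaries, their difference between genotypes is given as a description and was not tested. With the genotypes exchanged, the same limits selected 5 genes, namely Rn7s1, LOC102640236, LOC102640128, LOC102639280 and Tgm3, a transglutaminase of hair and epidermis.

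**Figure D1:**
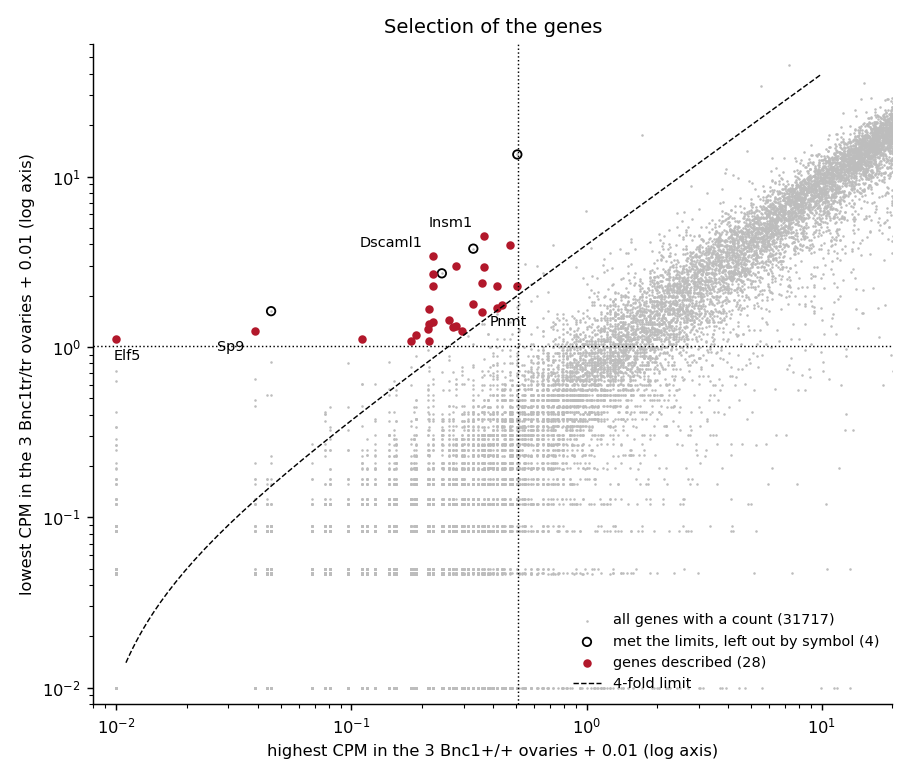
Highest CPM in the 3 Bnc1+/+ ovaries (x axis, log scale after adding 0.01) against the lowest CPM in the 3 Bnc1tr/tr ovaries (y axis, log scale after adding 0.01), 1 point per gene. Dotted lines mark 0.5 and 1 CPM and the dashed line the 4-fold limit. The 28 genes (red) sit inside all 3 limits, most of them close to the corner, and Elf5 lies at the left edge with no reads in Bnc1+/+.

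Many of the 28 genes are known from organs other than the ovary. They include regulators of endocrine and neural development, enzymes and transporters of transmitter metabolism, genes of surface epithelia, and genes of phagocytes. Such genes are usually silent outside their tissue, where their promoters are held closed by chromatin or lack the factors that drive them. By known function the genes fall into 8 transcription factors, 4 neural, neuroendocrine or transmitter genes, 3 epithelial genes, 2 myeloid genes, 2 lipid enzymes, 3 other named genes and 6 gene models or little described genes. The annotation (GENCODE M21, GRCm38) gave 25 of them as protein-coding, Gm19554 as a long intergenic RNA and Gm16511 as an unprocessed pseudogene, and LOC102637541 was not found in it. The 27 located genes lie on 17 chromosomes, with no chromosome holding more than 3. Examples of their positions are Elf5 (chr2:103411688-103450989, plus strand), Sp9 (chr2:73271925-73284706, plus strand), Insm1 (chr2:146221921-146225020, plus strand), Dscaml1 (chr9:45426628-45753712, plus strand) and Phlda2 (chr7:143501545-143503150, minus strand), each given as the whole annotated gene.

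Promoter sequence was looked up for the genes in RefSeq (GRCm38.p6), which gave 300 bases around the start site for 18 of the 28. The letters GCCNNNGGC, a form of the binding site of AP-2 factors such as the listed gene Tfap2a, occurred on either strand in 7 of the 18 promoters (38.9%) and in 18.5% of 27025 genes with a promoter. They were present at Dmrt2, Slc34a2, Sp9, Tctex1d1, Phlda2, Pnpla5 and Pdx1. The match is a description of letters and says nothing of binding. Windows of 110 bases are shown for 3 of them, all 5′ to 3′ in the direction of the gene, with the GCCNNNGGC letters in capitals. The Sp9 window (chr2:73271816-73271925, plus strand) ends at the start site and the match begins at -34. The Slc34a2 window (chr5:53049242-53049351, plus strand) lies before a start site inside the annotated gene, outside its exons, with the match at -61. The Pnpla5 window (chr15:84123199-84123308, minus strand) lies outside every annotated gene, with the match at -83.
Sp9: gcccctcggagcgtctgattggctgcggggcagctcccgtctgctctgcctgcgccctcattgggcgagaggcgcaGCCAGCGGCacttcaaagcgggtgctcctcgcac
Slc34a2: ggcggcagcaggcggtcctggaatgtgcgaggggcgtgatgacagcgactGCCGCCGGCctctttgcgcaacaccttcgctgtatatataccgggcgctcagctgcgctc
Pnpla5: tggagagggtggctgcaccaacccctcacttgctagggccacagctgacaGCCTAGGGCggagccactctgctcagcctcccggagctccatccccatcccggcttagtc
The 3 windows have little else in common. The Sp9 and Slc34a2 promoters are rich in CpG, with an observed to expected ratio of 0.83 and 0.86 over their 300 bases, and that of Pnpla5 is poor in CpG at 0.29. A ratio above 0.6 was found at 7 of the 18 promoters (38.9%) and at 38.3% of all genes. The GC box GGGCGG occurred in 8 promoters (44.4%, against 38.2% of all genes) and TATAAA in 2 (11.1%, against 15.7%), both searched on both strands.

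Reads were few in every ovary, even in Bnc1tr/tr. Totals ranged from 25247770 to 34406296 counts per ovary. No gene had more than 14 counts in any Bnc1+/+ ovary, and the values in Bnc1tr/tr ovaries ranged from 27 to 238 counts. Together the 28 genes summed to 5.69, 5.38 and 4.82 CPM in Bnc1+/+ ovaries 1, 4 and 7 and to 85.9, 56.4 and 77.0 CPM in Bnc1tr/tr ovaries 1, 2 and 3. Of the 28 genes, 24 had at least 1 count in each Bnc1+/+ ovary, 3 (Elf5, Sp9 and Gm16511) stayed at or under 3 counts in each, and Elf5 alone had none in any. For these 3 genes a fold is given only as a lower bound against 3 counts per library. This covers counting error only, and not all of it for Sp9 and Gm16511, which had reads in Bnc1+/+. With 3 counts as the limit that 0 reads allow, Elf5 is not shown to be absent from Bnc1+/+ ovaries.

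**Figure D2:**
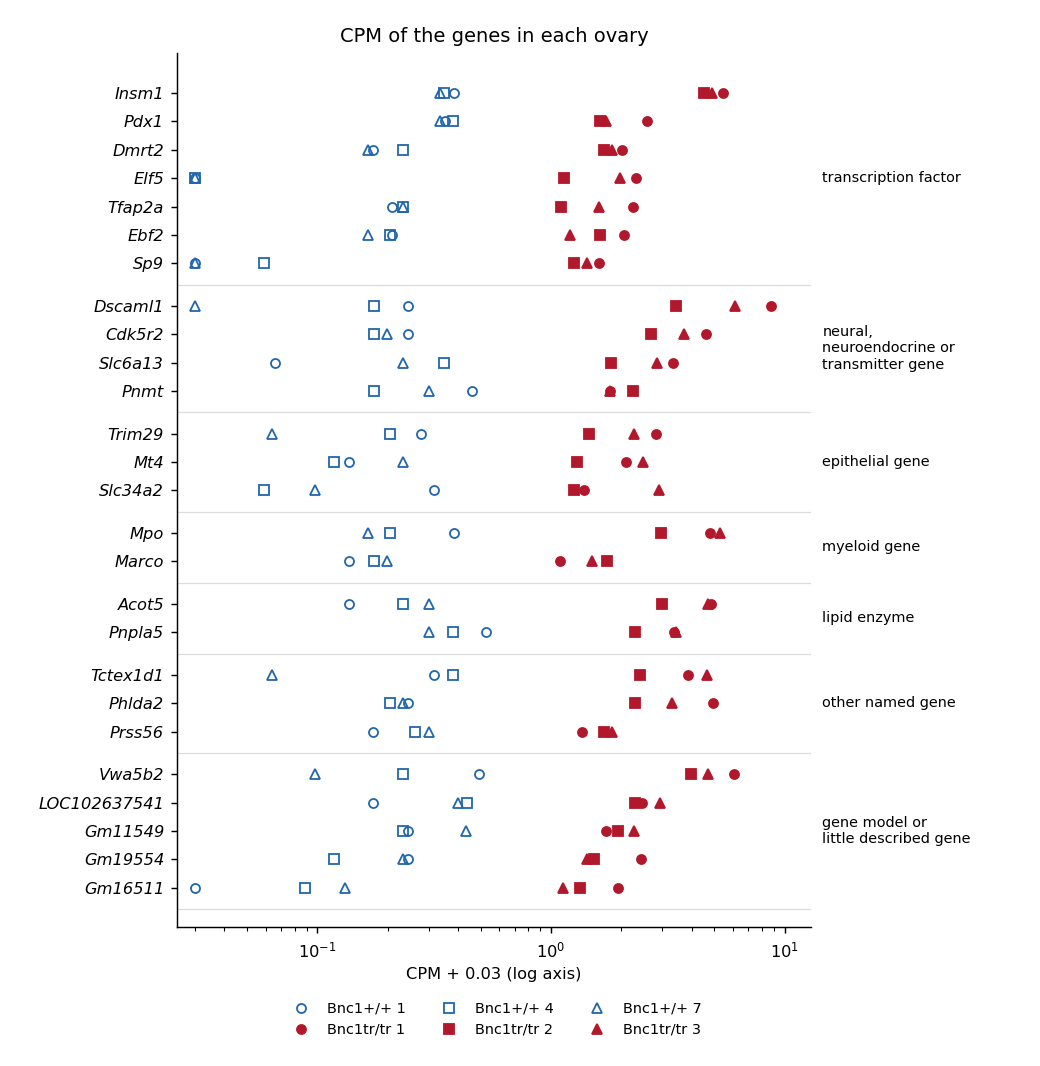
CPM of the genes named here in each of the 6 ovaries (x axis, log scale after adding 0.03), with the genes grouped by known function and ordered within a group by their Bnc1tr/tr mean. Open blue symbols are Bnc1+/+ and filled red symbols Bnc1tr/tr ovaries, 1 shape per ovary. The genotypes are apart in every row because the genes were selected so, and the filled square (Bnc1tr/tr ovary 2) is the leftmost red symbol in most rows.

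The largest group was 8 transcription factors of organs other than the adult ovary. Insm1, a zinc finger factor of neuroendocrine and pancreatic endocrine cells, had the most reads of them, with 10, 11 and 9 counts in Bnc1+/+ against 147, 113 and 133 in Bnc1tr/tr. This equals 0.326 ± 0.0268 against 4.92 ± 0.468 CPM (SD, n = 3 per genotype), and the Bnc1tr/tr ovaries differed little among themselves. Pdx1, the homeobox factor of the early pancreas and of insulin-producing cells, had 9, 12 and 9 counts against 69, 40 and 46. Its Bnc1+/+ reads were among the highest and its ratio of means, 5.97, was the lowest of the genes for which a ratio was taken. Of the other pancreas genes listed, which include insulin, glucagon and the digestive enzymes, 14 were in the table and 5 had enough reads to test. By edgeR none of the 5 rose (1 at an unadjusted p under 0.05 and 1 by DESeq2), and the protease Ctrb1 fell (61, 150 and 187 against 27, 14 and 22 counts), a call that was lost without Bnc1+/+ ovary 4 (adjusted p = 0.0777), without Bnc1+/+ ovary 7 (0.0531) or without Bnc1tr/tr ovary 3 (0.0518).

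Elf5 and Sp9 were the factors closest to silence in wild-type ovaries. Elf5, an ETS factor of mammary alveolar cells and trophoblast, had no count in Bnc1+/+ against 62, 28 and 53 in Bnc1tr/tr, at least 10.4-fold higher. Sp9, a zinc finger factor of forebrain interneurons and of the limb ridge, had 0, 1 and 0 against 43, 31 and 38 counts, at least 11.5-fold higher. An exon of Sp9 overlaps one of Cir1 on the other strand over 270 bases, and it is not known whether counting used the strand. Cir1 had 468, 542 and 438 counts in Bnc1+/+ against 463, 498 and 478 in Bnc1tr/tr, and did not pass the test (log2 fold change 0.10, adjusted p = 0.615 by the edgeR quasi-likelihood fit, Benjamini-Hochberg adjusted). Sp9 had a read in 1 of the 3 Bnc1+/+ ovaries.

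Other factors are known from the surface ectoderm, neural crest and mesoderm. Tfap2a, an AP-2 factor of neural crest and epidermis, had 5, 7 and 6 against 60, 27 and 43 counts. Dmrt2, a DM-domain factor of the somites, had 4, 7 and 4 against 54, 42 and 49, the smallest spread in Bnc1tr/tr of all 28 genes with a coefficient of variation of 8.95%. Ebf2, a factor of brown fat and neurons, had 5, 6 and 4 against 55, 40 and 32 counts. Its exons overlap 424 bases of the antisense gene Gm10860, which had no reads in any ovary.

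The neural genes included Dscaml1 and Cdk5r2. Dscaml1, an adhesion molecule that spaces neurons in the retina, had 6, 5 and 0 counts in Bnc1+/+ against 238, 86 and 166 in Bnc1tr/tr, which is 0.120 ± 0.109 against 6.08 ± 2.67 CPM (SD, n = 3 per genotype). Its mean was 50.9 times higher, the largest ratio of means among the 25 genes above the 3-count limit, and its Bnc1tr/tr values spread widely, from 3.41 to 8.76 CPM. Cdk5r2, a neuronal activator of the kinase Cdk5, had 6, 5 and 5 against 125, 67 and 101 counts.
Both transmitter genes were lower in level. Slc6a13, a GABA transporter of the liver, kidney and brain coverings, had 1, 11 and 6 against 90, 45 and 77 counts. Pnmt, which makes adrenaline from noradrenaline in the adrenal medulla, had 12, 5 and 8 against 48, 56 and 48. Pnmt was the gene nearest inside the 4-fold limit, and its highest Bnc1tr/tr value was in ovary 2, where most of the genes were lowest. The other enzymes of the catecholamine pathway did not pass the test. Th had a log2 fold change of -0.35 (SE 0.21, adjusted p = 0.368) and Ddc one of 0.18 (SE 0.39, adjusted p = 0.811) by the edgeR quasi-likelihood fit, Benjamini-Hochberg adjusted, and Dbh had too few reads to be tested.

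Among the epithelial genes, Trim29, a gene of basal cells of stratified epithelia, had 7, 6 and 1 counts in Bnc1+/+ against 76, 36 and 61 in Bnc1tr/tr. Mt4, the metallothionein of stratified squamous epithelium, had 3, 3 and 6 against 56, 32 and 67. Slc34a2, the phosphate cotransporter of lung alveoli and other epithelia, had 8, 1 and 2 against 37, 31 and 78 counts. Slc34a2 had the widest relative spread of the 28 genes in Bnc1tr/tr, with a coefficient of variation of 49.8%, and was highest in Bnc1+/+ ovary 1 and Bnc1tr/tr ovary 3. These are also the ovaries with the most oviduct marker reads. The summed CPM of 14 oviduct secretory and uterine markers was 132, 29.8 and 36.1 in Bnc1+/+ against 19.8, 37.0 and 511 in Bnc1tr/tr, and that of 14 ciliated cell markers 115, 64.0 and 59.1 against 85.2, 64.4 and 248. Their part in the Slc34a2 values was not tested.

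Of the myeloid genes, Mpo encodes the peroxidase of neutrophil granules and Marco a scavenger receptor of macrophages. Mpo had 10, 6 and 4 counts in Bnc1+/+ against 130, 74 and 144 in Bnc1tr/tr, and Marco 3, 5 and 5 against 29, 43 and 40. Other granule genes that are made together with Mpo in immature neutrophils did not accompany it. Elane, Ctsg and Ms4a3 had no count in any ovary, and Prtn3 had 0.737 ± 0.167 CPM in Bnc1+/+ and 0.983 ± 0.341 CPM in Bnc1tr/tr (SD, n = 3 per genotype, log2 fold change 0.32, adjusted p = 0.632 by the edgeR quasi-likelihood fit, Benjamini-Hochberg adjusted). The 10 neutrophil markers listed summed to 11.3, 8.89 and 11.1 CPM in Bnc1+/+ and to 10.7, 16.0 and 13.5 in Bnc1tr/tr, and edgeR and DESeq2 called none of the 4 that could be tested (1 higher at an unadjusted p under 0.05). The relatives of Marco, the class A scavenger receptors Msr1, Scara3, Scara5 and Colec12, also did not pass the test.

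Acot5, a thioesterase that cleaves acyl-CoA in peroxisomes, had 3, 7 and 8 counts in Bnc1+/+ against 131, 75 and 127 in Bnc1tr/tr, or 0.193 ± 0.0819 against 4.15 ± 1.02 CPM (SD, n = 3 per genotype). It lies in a cluster of near copies, between which reads may have been split. Of the cluster's other genes, Acot3 had a log2 fold change of 1.31 (SE 0.34) and Acot1 one of 0.49 (SE 0.12), with adjusted p of 0.0586 and 0.0514 by the edgeR quasi-likelihood fit, Benjamini-Hochberg adjusted, and Acot2, Acot4 and Acot6 were further from the threshold. The second lipid enzyme, the patatin-like lipase Pnpla5, had 14, 12 and 8 against 91, 57 and 93 counts.

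Phlda2, an imprinted gene that limits placental growth, had 6 counts in each of the 3 Bnc1+/+ ovaries and 133, 57 and 89 in Bnc1tr/tr. Most other genes examined in its imprinted cluster on chromosome 7 did not pass the test, namely Cdkn1c (log2 fold change 0.03), Kcnq1ot1 (-0.13), Ascl2 (0.04) and Tssc4 (-0.07). The exception was Slc22a18, an imprinted transporter gene 2211 bases from Phlda2, which rose from 20, 12 and 15 to 36, 41 and 70 counts (log2 fold change 1.72, SE 0.38, adjusted p = 0.0386 by the edgeR quasi-likelihood fit, Benjamini-Hochberg adjusted). This call was lost when any ovary except Bnc1tr/tr ovary 1 was left out, with adjusted p from 0.0571 to 0.162.
Tctex1d1, of the dynein light chain family, had 8, 12 and 1 against 104, 60 and 126 counts. It shares 1454 exon bases with the antisense gene BB031773, which had no read in any ovary. Prss56, a serine protease known from eye growth, had 4, 8 and 8 against 36, 42 and 49.
Vwa5b2, a little described gene of the von Willebrand A domain family, had 13, 7 and 2 against 164, 100 and 127 counts. The gene models were lower in level. LOC102637541 had 4, 14 and 11 against 66, 57 and 79 counts. Gm11549 had 6, 7 and 12 against 46, 48 and 61, and Gm19554 6, 3 and 6 against 65, 38 and 38. Gm16511, an X-linked pseudogene which may share reads with its parent gene, had 0, 2 and 3 against 52, 33 and 30 counts, at least 10.3-fold higher.

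Even in Bnc1tr/tr the genes were weakly expressed for their length. CPM per kb of annotated exon, the scale on which genes can be compared, ranged from 0.23 for Ebf2 to 4.84 for Mt4, with a median of 0.849 over the 27 genes with a length. The median of 17305 tested genes with a length was 5.32, and all 27 were below it, at percentiles from 5.05 to 47.9. Next to Mt4 came Phlda2 at 3.10, Acot5 at 2.73 and Gm16511 at 2.55 CPM per kb. Dscaml1, which had the most reads, has 8909 bases of annotated exon and was at 0.682 CPM per kb.

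The limits divided genes that were close to one another. Just inside the 4-fold limit were Pnmt (4.12), Gm11549 (4.19) and Slc34a2 (4.32), and just outside it the tight junction gene Cldn9 (3.86), Phkg1 (3.83) and Themis3 (3.80). At the limit of 1 CPM in Bnc1tr/tr, Marco and Tfap2a were inside with a lowest value of 1.07 and Gm16511 with 1.10, and the neural factor Myt1 (0.951), the hair cell motor gene Slc26a5 (0.871) and Gm7151 (0.809) were outside. At 0.5 CPM in Bnc1+/+, Pnpla5 (0.498), Vwa5b2 (0.462) and Pnmt were inside, and Zfp819 (0.539), 1700021F07Rik (0.573) and the Wnt inhibitor Sost (0.606) outside. Of 25727 genes at or under 0.5 CPM in all Bnc1+/+ ovaries, 45 reached 1 CPM in all Bnc1tr/tr ovaries, and 13 of them failed the 4-fold limit. Bnc1tr/tr ovary 2 decided many of these outcomes, and without it 47 genes would have met the rule.

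Within Bnc1tr/tr most of the genes moved together between ovaries. Of the 28, 21 were lowest in ovary 2 and 18 were highest in ovary 1, and 15 had the order 1, 3, 2 from high to low. Among 3315 other tested genes in the same span of mean Bnc1tr/tr CPM, 36.6% were lowest in ovary 2 and 19.7% had that order. The median ratio of ovary 2 to the mean of ovaries 1 and 3 was 0.705 for the 28 genes and 0.959 for the others. Markers of growing follicles had the same dip, with ratios of 0.671 over 12 oocyte markers and 0.697 over 10 granulosa cell markers, and 11 and 9 of them lowest in ovary 2. Luteal cell markers had a ratio of 1.38 and surface epithelium markers one of 1.30. With 3 ovaries these are descriptions.

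The summed level of the 28 genes was also set against the marker sums. The genes were selected to be low in Bnc1+/+ and higher in Bnc1tr/tr. A higher share in Bnc1tr/tr was thus built into the selection and is not a result. Of the summed CPM of the oocyte markers, the level was 0.736, 0.736 and 0.783% in Bnc1+/+ ovaries. It was 6.78, 6.94 and 6.35% in Bnc1tr/tr ovaries. Against the granulosa cell markers it was 0.140, 0.114 and 0.135%, and 1.33, 1.36 and 1.28%. Against a list of neural transcription factors, without the 28 genes, it was 33.4, 34.5 and 35.8%, and 156, 169 and 169%. Against these 3 lists the Bnc1tr/tr ovaries were close to one another, although their summed CPM ranged from 56.4 to 85.9. Most of the 31 lists used below were not set against the genes. Some of these also dipped in ovary 2, such as the pancreas list without Pdx1 (56.0, 39.6 and 49.4 CPM in Bnc1tr/tr ovaries 1, 2 and 3), and others did not. A close share is therefore not particular to markers of follicle cells. Against the luteal markers the Bnc1tr/tr ovaries were further apart. The share was 0.0315, 0.0245 and 0.0215% in Bnc1+/+ ovaries and 1.26, 0.485 and 0.747% in Bnc1tr/tr ovaries. Against the oviduct ciliated cell markers the share was 4.94, 8.40 and 8.16%, and 101, 87.6 and 31%, and against the oviduct secretory and uterine markers 4.31, 18 and 13.4%, and 433, 152 and 15.1%. The oocyte markers themselves summed to 773, 731 and 615 CPM in Bnc1+/+ against 1266, 813 and 1213 CPM in Bnc1tr/tr, and the 8 luteal markers to 18072, 21919 and 22385 against 6798, 11632 and 10301. Whether the genes are expressed in oocytes, in granulosa cells or elsewhere was not tested.

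**Figure D3:**
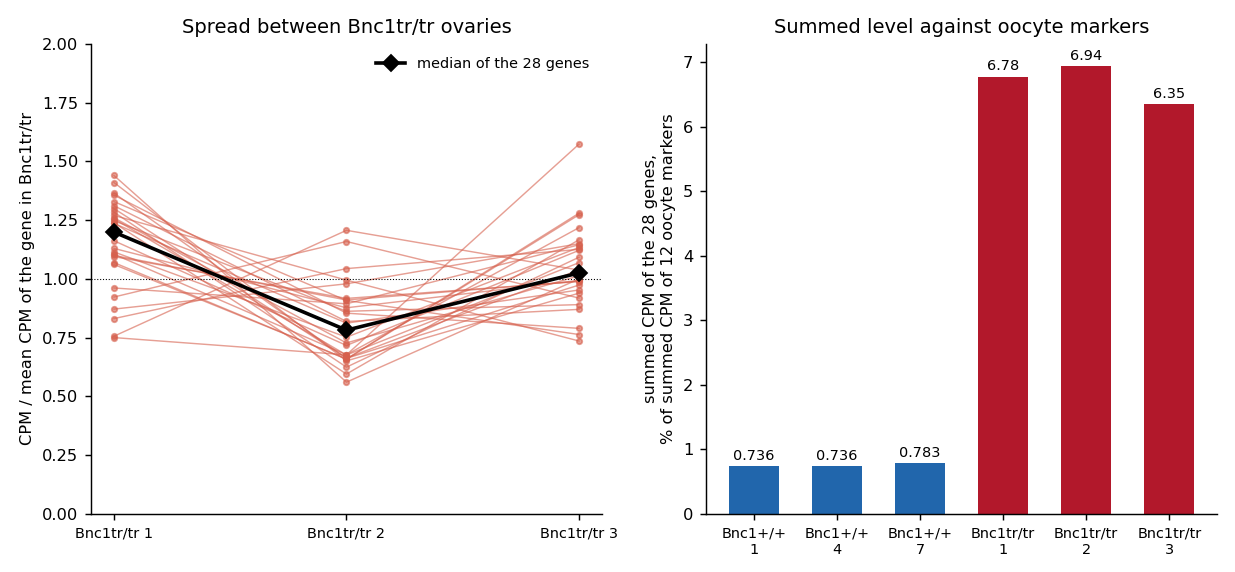
Left, CPM of each of the 28 genes in the 3 Bnc1tr/tr ovaries divided by its own mean over them (y axis, from 0), with 1 thin line per gene and the median as diamonds. Right, summed CPM of the 28 genes as a percentage of the summed CPM of 12 oocyte markers in each ovary (bars from 0). Most lines dip at ovary 2, and the bars of Bnc1tr/tr lie between 6.35 and 6.94%. The bars are apart between genotypes because the genes were selected so.

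All genes were compared between genotypes with the edgeR quasi-likelihood test, adjusted by Benjamini-Hochberg, at a threshold of 0.05. Of 19423 genes tested, 7.06% passed, 2.88% higher and 4.19% lower in Bnc1tr/tr. Of the genes that passed, 40.7% were higher in Bnc1tr/tr, and 64.4% when counts were scaled by library size alone. The 28 genes were all tested and all passed, and nothing is read from that since they were chosen by the same values. Bnc1 itself did not pass the test (log2 fold change 0.12, SE 0.18, adjusted p = 0.733), with 375, 444 and 381 counts in Bnc1+/+ against 527, 355 and 326 in Bnc1tr/tr. A count of this kind does not see the deletion.

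Genes of the same families were examined for the 28 genes, in 22 families with 69 relatives chosen after the values of the 28 were known. Of the 49 relatives that could be tested, 5 rose and none fell, and the median log2 fold change was 0.10, against 0.018 over all genes tested. Beside these 5 relatives stand 2.88% of all genes called higher. Of the 5, Tfap2b had enough reads to be tested only through the Bnc1tr/tr ovaries. At an unadjusted p under 0.05, 12 relatives were higher and 1 was lower, and DESeq2 also called 12 higher and 1 lower. The number that rose was 1 without Bnc1+/+ ovary 4, 2 without Bnc1+/+ ovary 7 and 8 without Bnc1tr/tr ovary 2.
Of the 5 that rose, Slc22a18 is described above and the others were transcription factors of the Elf and AP-2 families. Elf3, an ETS factor of epithelia, rose from 143, 189 and 142 to 1475, 857 and 1426 counts (log2 fold change 3.09, SE 0.19, adjusted p = 0.000408). The related factor Ehf rose from 217, 190 and 149 to 522, 326 and 660 counts (log2 fold change 1.52, SE 0.26, adjusted p = 0.0154). In contrast, Elf1, Elf2 and Elf4, which are expressed in many tissues, had log2 fold changes of -0.11, 0.05 and -0.25 and did not pass. Elf3 passed whichever of the 6 ovaries was left out, and Ehf was lost without Bnc1+/+ ovary 4 (adjusted p = 0.0967) or ovary 7 (0.0694).
The other two were AP-2 factors. Tfap2c rose from 27, 16 and 14 to 90, 64 and 79 counts (log2 fold change 2.11, SE 0.34, adjusted p = 0.0137). Tfap2b had 1, 1 and 2 against 13, 11 and 11 counts, at least 3.78-fold above 3 counts per library (adjusted p = 0.00963). It had enough reads to be tested only through the Bnc1tr/tr ovaries, so at this level a relative could be called only if it rose. Tfap2e, the AP-2 factor with the most reads in wild-type ovaries, had 7.01 ± 0.397 against 12.7 ± 4.08 CPM (SD, n = 3 per genotype) and did not pass (adjusted p = 0.0996), and Tfap2d was near 0 in both genotypes. Without Bnc1+/+ ovary 4 neither Tfap2c (adjusted p = 0.0849) nor Tfap2b (0.0748) passed, and Tfap2c was also lost without Bnc1+/+ ovary 7 (0.0654).
The remaining families had no relative past the threshold. Dmrt3, a relative of Dmrt2, had 0, 0 and 0 against 17, 9 and 9 counts, at least 3.09-fold higher, and was too low to be tested. Sp8, Insm2 and Slc34a3 had no reads in any ovary, and Sp5, Dscam, Cdk5r1 and Mt1 did not pass.

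The nearest annotated genes on each side, and any gene overlapping, were taken as neighbours. There were 63 for 27 genes, and 37 could be tested. Of these 2 rose and 1 fell (9 and 3 at an unadjusted p under 0.05), and their median log2 fold change was 0.04. Over all genes tested, 2.88% were called higher and 4.19% lower, and no result about the loci is read from so few calls. Besides Slc22a18, Sel1l3 next to Slc34a2 rose (42.2 to 71.5 CPM, log2 fold change 0.66, SE 0.11, adjusted p = 0.0154 by the edgeR quasi-likelihood fit, Benjamini-Hochberg adjusted). These calls depended on the processing, since none of the 3 passed without Bnc1+/+ ovary 1, without ovary 4 or without ovary 7 (adjusted p of Sel1l3 0.0529, 0.0876 and 0.0605). Near the threshold were Tcap beside Pnmt (1.58, adjusted p = 0.0580), Slc6a12 beside Slc6a13 (2.06, adjusted p = 0.0665) and Mt3 beside Mt4 (0.88, adjusted p = 0.0695), the latter a pair of close relatives. Exons of Dscaml1, Sp9, Tctex1d1, Ebf2 and Vwa5b2 overlap those of a listed gene, over 2 and 4 bases only in Dscaml1 and Vwa5b2.

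Lists of genes typical of 31 tissues and cell types were used to see which programmes the 28 genes came with. Without the 28 genes and the 4 left out by symbol they held 487 genes, of which 257 were tested. Over all genes tested, 2.88% were called higher and 4.19% lower in Bnc1tr/tr, the shares to set beside each list. Of the 257 list genes tested, 32 rose and 15 fell. Without single ovaries these counts reached as low as 8 and 4, both without Bnc1+/+ ovary 4, with 10 and 5 without ovary 7, 20 and 7 without Bnc1tr/tr ovary 3, and 21 that rose without Bnc1+/+ ovary 1. The list with the most genes that rose was that of neural transcription factors, with 7 of 12 tested, a median log2 fold change of 1.49, 1 that fell and 15 of its 50 genes without a read. Isl2, a homeobox factor of motor neurons, rose from 16, 34 and 29 to 305, 158 and 245 counts, and Pax6, of the eye, forebrain and pancreas, from 7, 3 and 0 to 57, 22 and 31. Isl2 would have met the limits of the selection with a Bnc1+/+ ceiling of 1 CPM. Genes such as Pax6 had enough reads to be tested only through the Bnc1tr/tr ovaries, and could be called only if they rose. Pax2, Pax5, Evx1 and Gbx2 also rose, with log2 fold changes from 1.06 to 1.96, while Olig3 fell (25, 17 and 18 to 1, 4 and 6 counts). Isl2 passed whichever of the 6 ovaries was left out. Pax6, Pax2, Pax5, Evx1 and Gbx2 did not pass without Bnc1+/+ ovary 4 (adjusted p from 0.0804 to 0.171) or without Bnc1+/+ ovary 7 (0.0629 to 0.118). Of these, Pax6, Pax2, Pax5 and Gbx2 were also lost without Bnc1tr/tr ovary 3, Pax6 and Pax2 without Bnc1tr/tr ovary 1, and Pax2 without Bnc1+/+ ovary 1 (0.0559 to 0.0950 in all), and Olig3 was lost whichever of the 6 was left out (0.0734 to 0.125). Of the genes of mature neurons, 1 of 18 tested rose (Elavl3, lost when any Bnc1+/+ ovary was left out, with adjusted p from 0.0770 to 0.117, or without Bnc1tr/tr ovary 1, 0.0554), and their summed level was 75.6 to 81.6 CPM in Bnc1+/+ and 89.2 to 94.9 CPM in Bnc1tr/tr.

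Skin and hair genes beyond those left out by symbol moved in part. Of 17 tested epidermis genes, 4 rose, among them the cornified envelope enzyme Tgm1 (20, 16 and 15 to 127, 100 and 123 counts) and the desmosome gene Dsg1a (4, 4 and 4 to 27, 18 and 17). Dsg1a was lost without Bnc1+/+ ovary 4 (adjusted p = 0.0757) or ovary 7 (0.0547). Dsg1a and the hair keratin gene Krt83 had enough reads to be tested only through the Bnc1tr/tr ovaries. At this level a gene could be called only if it rose. Tgm1 missed the selection on its Bnc1+/+ level alone, and would have met the limits with a Bnc1+/+ ceiling of 1 CPM. Of 10 tested hair follicle genes, 3 rose (Krt73, Krt83 and Gata3, of which Krt83 was lost when any Bnc1+/+ ovary or Bnc1tr/tr ovary 3 was left out, with adjusted p from 0.0547 to 0.0680, and Gata3 without Bnc1+/+ ovary 7, 0.0761) and 1 fell (Tgm3, 38, 43 and 40 to 6, 7 and 6 counts). Tgm3 had also been selected by the limits with the genotypes exchanged, and had enough reads to be tested only through the Bnc1+/+ ovaries. Nothing further is read from its fall. In the lists that hold Elf5 and Pdx1, Olah of the mammary list rose (36, 36 and 47 to 98, 65 and 119 counts), a call lost when any ovary except Bnc1tr/tr ovary 2 was left out (adjusted p from 0.0667 to 0.146), and the milk protein genes were too low to test.
Among ovarian cell types, 6 of 8 luteal genes fell, including Lhcgr (14646, 26483 and 21099 to 2610, 2233 and 2242 counts), and 3 of 12 oocyte genes rose (Gdf9, Bmp15 and Oosp1, log2 fold changes from 0.78 to 1.04). Lhcgr passed whichever ovary was left out. The other luteal calls did not all hold. Without Bnc1+/+ ovary 4, Ptgfr, Cyp11a1, Hsd3b1, Prlr and Sfrp4 were lost (adjusted p from 0.0757 to 0.152), and likewise without Bnc1+/+ ovary 7 (0.0566 to 0.0981). Cyp11a1 and Hsd3b1 were lost without Bnc1+/+ ovary 1 (0.0524 and 0.0793), and with Ptgfr and Sfrp4 without Bnc1tr/tr ovary 3 (0.0527 to 0.1). Ptgfr was lost without Bnc1tr/tr ovary 1 (0.0786), and Ptgfr and Sfrp4 without ovary 2 (0.0549 and 0.0521). The oocyte calls were lost without Bnc1+/+ ovary 4 (adjusted p from 0.101 to 0.158), Bnc1+/+ ovary 7 (0.0764 to 0.141) or Bnc1tr/tr ovary 3 (0.0585 to 0.124), and in part without Bnc1+/+ ovary 1 or Bnc1tr/tr ovary 1 (0.0509 to 0.0958). These marker levels moved with the genotype, and their part in the levels of the 28 genes was not tested. In 10 lists, edgeR called none of the 70 genes tested, with 4 higher and 4 lower at an unadjusted p under 0.05 and 2 called higher by DESeq2. They were the lists of oviduct ciliated cells, erythroid cells, neutrophils, lymphocytes, intestine, placenta, cartilage and bone, spermatids, Leydig and adrenal cells, and pituitary and thyroid.

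**Figure D4:**
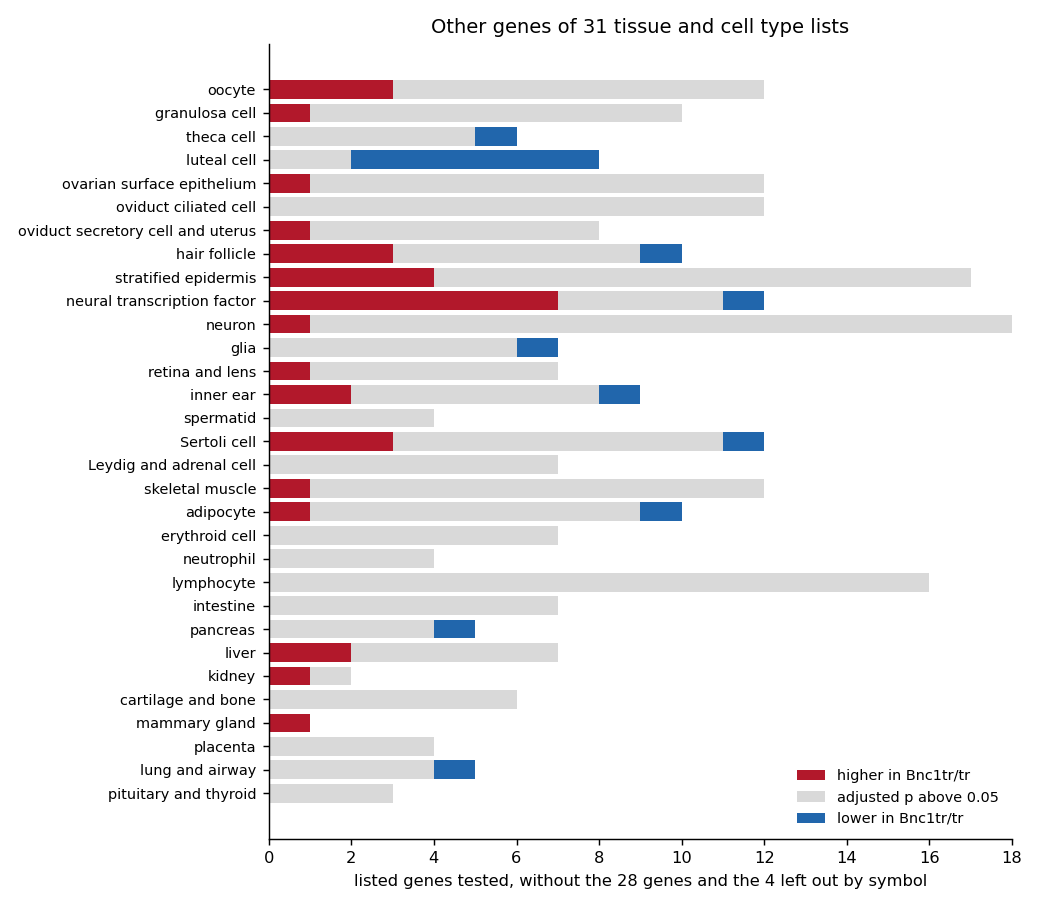
Number of tested genes in each of 31 tissue and cell type lists (x axis, bars from 0), divided into those higher in Bnc1tr/tr (red), those above an adjusted p of 0.05 (grey) and those lower (blue). The neural transcription factor list has the longest red bar (7 of 12) and the luteal cell list the longest blue bar (6 of 8). Over all genes tested, 2.88% were called higher and 4.19% lower.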

How the data were processed

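Total RNA of whole ovaries was extracted with TRIzol and single-end libraries were read on an Ion Proton sequencer. Raw counts were deposited, as whole numbers of reads per gene and ovary with no normalization. The genome build mm10 is named in the submitters' processing notes, which also list Sscrofa 10.2 with no role. The aligner, the counter and the use of strand are not given in the sources used here, so reads of overlapping genes and near copies may be misassigned.

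CPM was taken on the full total of each ovary. Counts over all genes were filtered with filterByExpr (minimum count 10), scaled by TMM and fitted with glmQLFit and glmQLFTest of edgeR 4.0.16 under R 4.3.3. Tests were two-sided, adjusted by Benjamini-Hochberg over 19423 genes, with a threshold of 0.05. Genes near silent in Bnc1+/+, such as Tfap2b, Pax6, Dsg1a and Krt83, passed the filter only through the Bnc1tr/tr ovaries. DESeq2 1.42.0 was an alternative. The edgeR fit and the selection rule were tested on simulated data, the rule with planted genes far from its limits. The other steps were not tested in this way. No 2 ovaries agreed within sampling noise. The paper states that littermates were compared, but the labels do not tell litters. The test was unpaired, so p-values measure the spread between these samples and take no account of litter.

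The 28 genes and all lists were chosen with earlier results of these data known, and the family relatives after the values of the 28 genes were seen. The named genes were those with the highest Bnc1tr/tr CPM or the highest ratio, those with no Bnc1+/+ count, those in a tissue list, those nearest each limit, Bnc1, and changed list genes or neighbours; most of the remaining ones of the 28 were given as well, and results for some genes are not reported here. Gene positions came from GENCODE M21 (GRCm38) and promoters from RefSeq.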

Additional observations from a re-analysis of the deposited data

How the results depend on the processing

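The number of genes that met the limits, 28, was 25 with TMM library sizes or DESeq2 size factors, where Gm11549, Pnmt and Pnpla5 were lost, and 26 without structural RNA in the totals. It was 14 with a ceiling of 0.25 CPM, 44 with a floor of 0.5 CPM, 10 with a floor of 2 CPM, 11 with a fold limit of 8, and 30 to 47 without one ovary, where all 28 were kept and the highest number came without Bnc1tr/tr ovary 2. Of 19423 genes, 1372 passed, against 2344 by DESeq2 and 320 to 1282 without one ovary. On library size alone, 64.4% of the calls were higher in Bnc1tr/tr against 40.7% with TMM, and the median log2 fold change was 0.118 against 0.018. List genes that rose numbered 8 to 37 without one ovary and those that fell 4 to 13, from 32 and 15. Neighbours that rose numbered 5 on library size, 6 by DESeq2 and 0 to 3 without one ovary, and those that fell 0 on library size, 0 without the filter, 2 by DESeq2 and 0 to 1 without one ovary. Relatives that rose numbered 9 on library size, 12 by DESeq2 and 1 to 8 without one ovary, and 1 fell by DESeq2. Leaving out an ovary leaves fewer samples for the test, and for the other settings the cause was not tested. No paired analysis was possible because the genotypes share only the replicate number 1 and the labels do not tell litters. The paper states that littermates were compared. The relatives' alternatives were chosen after seeing the data. Few reads limit the members: at 3 counts a gene cannot be told from silent.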
